A study of Homo sapiens with 8 samples.

Results

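A group of 7 genes for proteins of the cell surface and its protease system was followed across the treatments. CDCP1, EMP1 and EPHA2 were taken because they were higher in treated cells in these same data, and PLAUR, PLAU, CD44 and TNFRSF12A were put beside them for their function. Together they make 7 of the 60230 genes in the count table. The values of CDCP1, EMP1 and EPHA2 are therefore a description, with no test.

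The cells studied were HepG2, an established line from a human liver cancer. The cells of all 4 groups, controls included, carried overexpressed cytochrome P450 2C19 and were kept under blasticidin. Control cells received 0.2% DMSO, and the other groups received compound 4, compound 5 or compound 6, plastic antioxidants built from a pair of phenol rings. Compound 4, named metylcresol in the labels, has a methylene bridge and rings with a tert-butyl and a methyl group, compound 6 (cyclohexil) has cyclohexyl groups in place of the tert-butyl groups, and compound 5 (tetrabut) has an ethane bridge and a pair of tert-butyl groups on each ring. Each compound was given at its own IC50, so the concentrations were not equal, and RNA was sequenced from 2 replicates per group.

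The labels call these replicates day 1 and day 2, while the methods of the study give every group an exposure of 24 h. The day was therefore read as the replicate number. The sources used here do not say whether the replicates came from separate cultures, and the p-values then measure only the spread between these samples. Between 9791659 and 17814595 read pairs per library were counted on genes. All 10 hepatocyte markers, among them ALB and APOA1, were counted, with summed levels of 52930 to 54525 CPM (read counts scaled to a common library total) in DMSO, 35354 to 42027 CPM with compound 4, 42304 to 42936 CPM with compound 5 and 38412 to 44208 CPM with compound 6. Of 6 fibroblast markers only PDGFRB reached 1 CPM, with DCN, LUM and COL1A2 at 0 in all libraries, and its values made up nearly all of the summed level, which was 5.33 to 9.19 CPM in DMSO, 23 to 25.6 CPM with compound 4, 7.52 to 10.7 CPM with compound 5 and 14.6 to 14.7 CPM with compound 6. The 4 endothelial markers summed to between 0.73 and 2.12 CPM. Among 5 leukocyte markers PTPRC and CD3E were at 0, and LYZ, also counted in these DMSO libraries at 2156 and 1916 CPM, made up most of a sum of 1432 to 2181 CPM. CYP2C19 itself was at 27.6 and 17.1 CPM in DMSO, 31.1 and 44.6 CPM with compound 4, 49.8 and 37.4 CPM with compound 5 and 24.1 and 21.6 CPM with compound 6. The part that these levels have in the results below was not tested.

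The urokinase system acts at the cell surface: urokinase (PLAU) binds its receptor (PLAUR) and cuts plasminogen to plasmin, a protease that degrades matrix, and inhibitors of the serpin family stop it. CDCP1 is a transmembrane substrate of SRC family kinases, EPHA2 is a receptor tyrosine kinase for ephrin-A ligands, EMP1 is a small tetraspan protein of the PMP22 family, TNFRSF12A (Fn14) is the receptor of the cytokine TWEAK, and CD44 is the main receptor for hyaluronan. In many epithelial cancers these proteins are found at high level on cells that invade, and several of their genes are known targets of AP-1, a dimer of FOS and JUN proteins.

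The promoters of the 3 genes chosen for their rise are shown because they differ in the short motifs they hold. The sequences were taken from RefSeq on GRCh38.p14, which had an entry for 6 of the 7 genes, all but TNFRSF12A, and each is printed from 250 bases before the start site up to the first base inside an annotated exon. Capitals mark matches, on either strand, to the AP-1 motif TGANTCA, the TEAD motif GGAATG and the cAMP response element (CRE) TGACGTCA. The stretches are chr12:13196476-13196715 on the plus strand for EMP1, chr1:16156088-16156319 on the minus strand for EPHA2 and chr3:45146423-45146628 on the minus strand for CDCP1.
EMP1: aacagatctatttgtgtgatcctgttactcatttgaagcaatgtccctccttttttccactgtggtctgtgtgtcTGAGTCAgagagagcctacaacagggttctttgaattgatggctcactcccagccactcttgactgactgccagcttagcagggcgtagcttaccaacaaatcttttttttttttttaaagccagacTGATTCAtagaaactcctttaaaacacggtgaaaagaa
EPHA2: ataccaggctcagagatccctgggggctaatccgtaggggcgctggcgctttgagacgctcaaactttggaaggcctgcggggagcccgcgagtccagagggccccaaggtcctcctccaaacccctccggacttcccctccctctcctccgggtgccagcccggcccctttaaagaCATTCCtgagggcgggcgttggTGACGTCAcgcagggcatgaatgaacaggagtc
CDCP1: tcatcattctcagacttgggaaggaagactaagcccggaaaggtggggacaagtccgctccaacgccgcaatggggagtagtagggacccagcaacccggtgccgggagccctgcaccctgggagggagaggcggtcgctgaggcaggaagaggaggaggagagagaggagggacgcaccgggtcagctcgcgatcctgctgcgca

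The EMP1 promoter held 2 AP-1 matches, which began 175 and 48 bases before the start site. This motif was found in 6.57% of the 35116 promoters searched. The PLAUR promoter also held 1, which began 186 bases before the start. The EPHA2 promoter held no AP-1 match but had a CRE match 51 bases and a TEAD match 73 bases before the start, motifs present in 1.65% and 11.9% of all promoters. None of these 3 motifs was found in the CDCP1 window or in either window of PLAU. The ETS motif CCGGAAG (8.52% of promoters) and the ATF4 motif TGATGNAA (3.14%) were in none of the 3 printed promoters. An NF-kB motif and the SP1 motif GGGCGG were common, in 54.4% and 42.6% of all promoters, and EPHA2 and CDCP1 held both. A match describes letters and not a bound site.

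EPHA2 (ENSG00000142627, chr1:16124337-16156087, minus strand) had the highest level of the 3 genes chosen for their rise. It was counted at 76.5 and 73.8 CPM in the DMSO replicates 1 and 2, at 131 and 229 CPM with compound 4, at 307 and 230 CPM with compound 5, and at 107 and 198 CPM with compound 6. All 6 treated libraries lay above both DMSO libraries, and the compound 5 libraries were the highest. The group means were 75.2 ± 1.88 (SD, n = 2), 180 ± 69.7, 268 ± 54.2 and 152 ± 64.1 CPM. The log2-fold change against DMSO was 1.29 (SE 0.31) for compound 4, 1.92 (SE 0.31) for compound 5 and 1.02 (SE 0.31) for compound 6. Without replicate 2 of compound 6 its value was 0.53, and without replicate 2 of compound 4 that compound's value was 0.84. A gene on the opposite strand, AL451042.2, overlaps EPHA2 and had 60 counts in all libraries together, against 1594 for EPHA2 in DMSO alone.

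CDCP1 (ENSG00000163814, chr3:45082278-45146422, minus strand) was close to the lower limit of detection in control cells, with 10 and 6 counts, or 1.02 and 0.524 CPM. It was at 3.9 and 5.6 CPM with compound 4, at 3.73 and 2.58 CPM with compound 5 and at 4.25 and 8.2 CPM with compound 6, so that no treated library overlapped with DMSO. Summed over the replicates, the level relative to DMSO was 6.55 for compound 4 (95% counting interval 3.87 to 11.8), 4.29 for compound 5 (2.51 to 7.81) and 8.37 for compound 6 (4.96 to 15.1). These intervals cover counting error only and leave out the spread between replicates. They are no test, because the gene was chosen for its rise. The fitted log2-fold changes were 2.66 (SE 0.49), 2.11 (SE 0.50) and 3.03 (SE 0.48), respectively. Leaving out 1 library at a time gave 2.21 to 3.22 for compound 4, 1.66 to 2.66 for compound 5 and 2.49 to 3.57 for compound 6.

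EMP1 (ENSG00000134531, chr12:13196716-13219939, plus strand) was almost absent from control cells, with 3 counts in DMSO replicate 1 and 1 count in replicate 2. In treated cells it reached 22 and 136 counts with compound 4, 69 and 29 counts with compound 5, and 28 and 94 counts with compound 6. In CPM this was 0.306 and 0.0874 in DMSO, 2.04 and 10.4 with compound 4, 5.36 and 1.63 with compound 5, and 2.77 and 9.07 with compound 6. Every treated library was above DMSO, yet the replicates of each compound were far apart, and their SD was a large part of the mean (6.23 ± 5.93, 3.5 ± 2.64 and 5.92 ± 4.45 CPM). The ratio of the summed levels to DMSO rested on 4 DMSO counts and was 36 for compound 4 (95% counting interval 13.8 to 134), 17.9 for compound 5 (6.77 to 67) and 31.9 for compound 6 (12.1 to 119). As for CDCP1, these intervals leave out the spread between replicates and are no test. Like CDCP1, EMP1 passed the filter on low counts through the treated libraries. The fitted log2-fold changes of 5.01 (SE 1.24), 4.18 (SE 1.31) and 4.90 (SE 1.26) moved with single libraries, from 3.41 without compound 4 replicate 2 to 6.06 without DMSO replicate 1 in the case of compound 4.

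**Figure D1:**
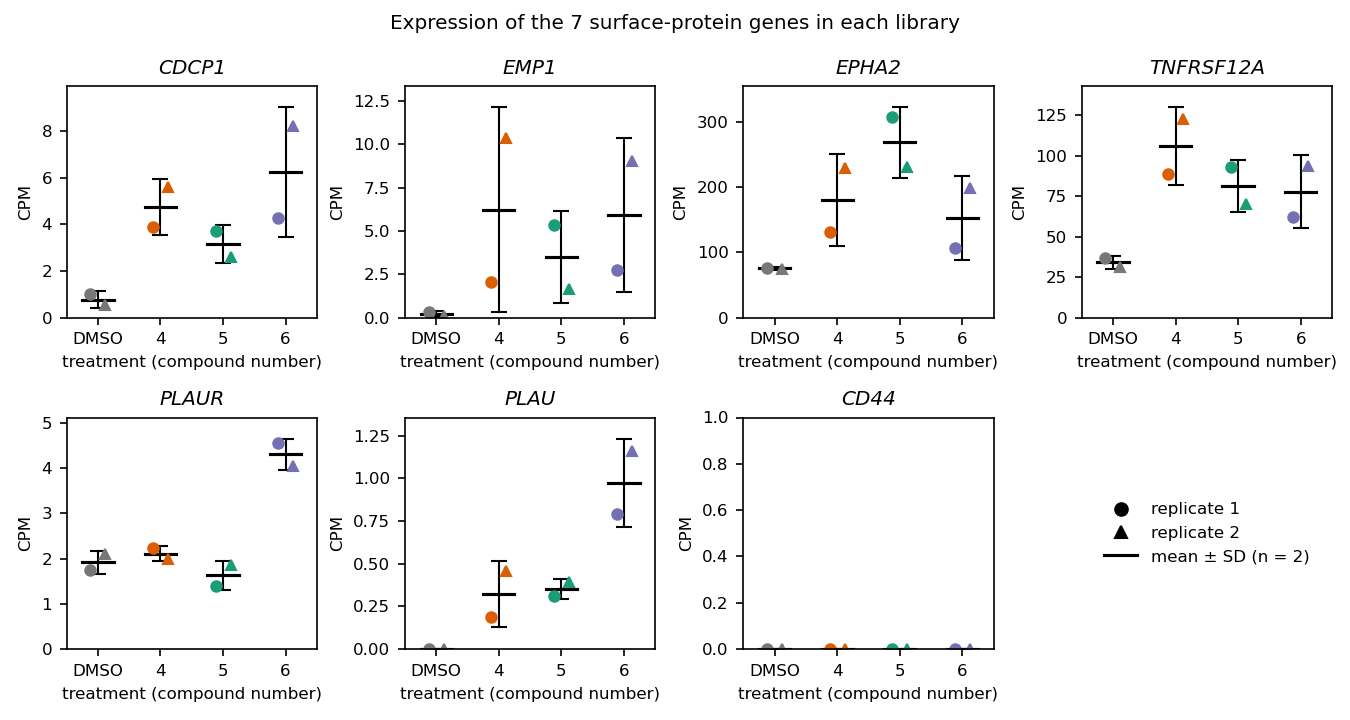
CPM of each of the 7 genes (y axis, a separate linear scale per gene) in the DMSO, compound 4, compound 5 and compound 6 groups (x axis). Circles are replicate 1, triangles replicate 2, and bars the mean ± SD of 2 replicates. CDCP1, EMP1, EPHA2, TNFRSF12A and PLAU lie above DMSO in all 6 treated libraries. CDCP1, EMP1 and EPHA2 were chosen for their rise, and PLAU has few counts. PLAUR lies above DMSO only with compound 6, and CD44 is at 0 throughout. The share of all tested genes that lie above DMSO in this way is not given.

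TNFRSF12A was the one gene chosen by function that passed the test. This short receptor gene (ENSG00000006327, chr16:3018445-3022383, plus strand) was at 37 and 31.3 CPM in DMSO. It was at 88.7 and 123 CPM with compound 4, at 93 and 70.2 CPM with compound 5 and at 61.9 and 93.9 CPM with compound 6, without overlap with DMSO in any group. The share of all tested genes without such overlap is not given, for this gene or for those below. It rose 3.16-fold with compound 4 (log2-fold change 1.66, SE 0.24, adjusted p = 0.0056, quasi-likelihood test of edgeR) and 2.53-fold with compound 5 (1.34, SE 0.24, adjusted p = 0.014). The 2.3-fold difference with compound 6 did not pass the threshold of 0.05 in edgeR (1.20, SE 0.24, adjusted p = 0.056), and it passed in the Wald test of DESeq2 (adjusted p = 2.6e-05). Of the 4 genes chosen by function 2 passed the filter on low counts, so that 1 of 2 was called with compound 4, 1 of 2 with compound 5 and none with compound 6 (unadjusted p = 0.0006 for TNFRSF12A and 0.0038 for PLAUR). Of all 13400 genes tested 9.51%, 8.3% and 0.575%, respectively, were called. The compound 4 call was lost without DMSO replicate 2 (adjusted p = 0.082), and the compound 5 call without DMSO replicate 1 (0.069), DMSO replicate 2 (0.13) or compound 5 replicate 1 (0.088). With compound 6 the difference passed in other fits of edgeR, for example on only the 4 libraries compared (adjusted p = 0.01), and over all alternatives its adjusted p ranged from 3e-13 to 0.44. CLDN6 overlaps TNFRSF12A on the opposite strand and had 60 counts in all libraries together. In bulk RNA, a change in the number of cells that express a gene and a change in its RNA per cell cannot be told apart.

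PLAUR, the urokinase receptor, followed another course. The gene (ENSG00000011422, chr19:43646095-43670547, minus strand) was at 1.74 and 2.1 CPM in DMSO, 2.23 and 1.99 CPM with compound 4, 1.4 and 1.85 CPM with compound 5, and 4.55 and 4.05 CPM with compound 6. Compounds 4 and 5 overlapped with DMSO, whereas both compound 6 libraries lay above all others. The log2-fold change was 0.16 (SE 0.32, adjusted p = 0.78) with compound 4, -0.15 (SE 0.32, adjusted p = 0.79) with compound 5 and 1.17 (SE 0.31, adjusted p = 0.1) with compound 6 in edgeR. The 2.25-fold difference with compound 6 thus did not pass the threshold over all genes, and with no filter on low counts it did (adjusted p = 0.03).

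Urokinase itself was scarce. PLAU (ENSG00000122861, chr10:73909177-73917497, plus strand) had 0 counts in both DMSO libraries, 2 and 6 with compound 4, 4 and 7 with compound 5, and 8 and 12 with compound 6. In CPM the treated libraries ran from 0.186 and 0.46 with compound 4 through 0.311 and 0.393 with compound 5 to 0.791 and 1.16 with compound 6. Set against a limit of 3 counts over the DMSO group, the observed level with compound 4 was 2.43-fold that limit. With compounds 5 and 6 it was 2.68-fold and 6.98-fold. These ratios leave out counting error in the treated libraries and are not lower bounds. The gene did not pass the filter on low counts and was not tested. PLAU and PLAUR each had their highest values in the compound 6 libraries, but PLAU was not tested and PLAUR did not pass the threshold. CD44 (ENSG00000026508, chr11:35138870-35232402, plus strand) had 0 counts in all 8 libraries, which allows a level of up to 0.171 to 0.307 CPM per library at a limit of 3 counts. These limits were scaled by the library size after TMM normalization, unlike the CPM above.

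Per kb of the longest coding transcript, TNFRSF12A and EPHA2 were the most abundant of the 7 genes in every group. In DMSO they were at 30.1 ± 3.55 and 19 ± 0.474 CPM per kb (SD, n = 2). PLAUR followed at 1.19 ± 0.159 CPM per kb, then CDCP1 at 0.129 ± 0.0585 and EMP1 at 0.0333 ± 0.0262. With compound 4 the order changed below PLAUR (1.31 ± 0.103 CPM per kb), where EMP1 at 1.05 ± 1 and CDCP1 at 0.791 ± 0.2 CPM per kb did not differ beyond their spread. With compound 5, TNFRSF12A at 72 ± 14.2 and EPHA2 at 67.7 ± 13.7 CPM per kb lay within their spread as well. With compound 6, TNFRSF12A was at 68.8 ± 20, EPHA2 at 38.4 ± 16.2, PLAUR at 2.67 ± 0.219, CDCP1 at 1.04 ± 0.465, EMP1 at 0.999 ± 0.752 and PLAU at 0.367 ± 0.0974 CPM per kb.

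The replicates of a group differed in a shared way. Replicate 2 was higher than replicate 1 for CDCP1, EMP1, EPHA2 and TNFRSF12A under compounds 4 and 6, and lower in DMSO and under compound 5. This arrangement held for 1101 of the 13400 tested genes, or 8.22%. For EMP1 the difference of replicate 2 minus replicate 1, in log2(CPM + 0.5), was -0.46 in DMSO, 2.10 with compound 4, -1.46 with compound 5 and 1.55 with compound 6. Only 0.164% of tested genes had a difference at or above that of EMP1 with compound 4, and 0.403% with compound 6, and 0.224% were at or below it with compound 5. For EPHA2 the corresponding differences were -0.05, 0.81, -0.41 and 0.88, with 2.06% of genes at or above it under compound 4 and 1.49% under compound 6. For CDCP1 they were -0.57, 0.47, -0.46 and 0.87, and for TNFRSF12A -0.24, 0.47, -0.40 and 0.60. PLAUR showed the opposite arrangement (0.22, -0.13, 0.31 and -0.15), as did 9.87% of tested genes. The replicate number alone did not order the libraries. The labels mark replicate 1 of DMSO and of compound 4 as merged, and the part of this in the differences was not tested.

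The compounds were then compared with each other, in 3 pairs. PLAUR was the gene chosen by function with the largest difference: compound 6 exceeded compound 5 by 1.32 on the log2 scale (95% interval 0.64 to 1.99, adjusted p = 0.07, edgeR) and compound 4 was below compound 6 with a value of -1.01 (-1.68 to -0.33, adjusted p = 0.51). Neither passed the threshold. Between compounds 4 and 5 the PLAUR value was 0.31 (-0.40 to 1.02, adjusted p = 0.65). TNFRSF12A differed by 0.32 between compounds 4 and 5 (-0.18 to 0.83, adjusted p = 0.5), by 0.46 between compounds 4 and 6 (-0.05 to 0.98, adjusted p = 0.74) and by -0.14 between compounds 6 and 5 (-0.65 to 0.37, adjusted p = 0.78), and the last value changed sign when 1 library was left out. In this fit neither gene differed past the threshold between compounds with tert-butyl against cyclohexyl groups, or with other bridge and ring groups. PLAUR with compound 6 against 5 did pass in edgeR with no filter on low counts (adjusted p = 0.011). It also passed with at least 10 counts required in every sample (adjusted p = 0.041). The unadjusted intervals of PLAUR with compound 6 against both other compounds lay on 1 side of 0, and the others spanned 0. With all genes, 0.313% were called between compounds 4 and 5, 0% between 4 and 6, and 1.03% between 6 and 5.

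For the genes chosen for their rise the differences between compounds are given without a test. EPHA2 had values of -0.63 for compound 4 against 5, 0.26 for compound 4 against 6 and -0.89 for compound 6 against 5. CDCP1 had 0.56, -0.36 and 0.92, and EMP1 0.83, 0.11 and 0.72. EPHA2 was highest with compound 5 and CDCP1 lowest, an order that held when any 1 library was left out (-1.40 to -0.30 for EPHA2 and 0.27 to 1.31 for CDCP1, over both comparisons with compound 5). With a replicate number left out in all groups it could nearly vanish. For compound 4 against 5, EPHA2 was at -0.04 without replicate 1 and -1.29 without replicate 2. CDCP1 was at 1.08 and 0.005, respectively. The order of EMP1 rested on single libraries, since compound 4 against 5 became -0.78 without compound 4 replicate 2 and compound 6 against 5 became -0.37 without compound 6 replicate 2. Between compounds 4 and 6 the sign turned for all 3 genes when a library was left out, with values of -0.19 to 0.76 for EPHA2, -0.75 to 0.18 for CDCP1 and -1.498 to 1.195 for EMP1.

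The genes whose profile over the 8 libraries was closest to EPHA2, EMP1, CDCP1 and PLAUR were sought among 12731 genes, as the root mean square difference in log2(CPM + 0.5) relative to the DMSO mean. This was not done for TNFRSF12A. For EPHA2 these genes were SLC3A2, a heavy chain of amino acid transporters (0.10), the kinase gene PIM3 (0.13) and MAFK, a small MAF transcription factor (0.17). SLC3A2 ran from 225 and 229 CPM in DMSO to 353 and 703 CPM with compound 4, 941 and 765 CPM with compound 5, and 321 and 534 CPM with compound 6, and thus shared the high compound 5 libraries and the split between replicates of compounds 4 and 6. The profiles nearest to EMP1 were those of MYEOV (0.33), of AREG, which encodes the EGF receptor ligand amphiregulin (0.51), and of AQP3, a channel for water and glycerol (0.52). MYEOV was at 0.919 and 0.0874 CPM in DMSO and at 2.78 and 10.1 CPM with compound 4. For CDCP1 they were the long noncoding RNA LUCAT1 (0.24), the phospholipase C gene PLCD3 (0.28) and TMC8 (0.30), and for PLAUR HSF2BP (0.17), AVIL (0.19) and HAS3, a hyaluronan synthase (0.19). HAS3 was at 1.23 and 1.66 CPM in DMSO and at 3.36 and 3.38 CPM with compound 6. All libraries and their depth are shared by these profiles.

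Genes around the 7 members were counted in 8 lists by function, with 132 genes, of which 20 had no count and 89 were tested. The lists were chosen with earlier results of these data known, so the shares below are a description and no test of the lists. With compound 4, 16 of the 89 rose (18%) and 3 fell (3.37%), beside 5.6% and 3.91% of all genes tested. With compound 5, 7 rose (7.87%) and 5 fell (5.62%), beside 5.35% and 2.95% of all genes, and with compound 6, 3 rose (3.37%) and none fell, beside 0.493% and 0.0821%. The median log2-fold change of the 89 genes was 0.14, 0.11 and 0.11 for compounds 4, 5 and 6, and that of all genes was 0.01, 0.00 and 0.02. The numbers depended on single libraries: without DMSO replicate 2 only 1 gene rose and none fell with compound 4, and without compound 4 replicate 2 the 16 became 2. In a fit that took the replicate number as a block, 7 genes fell with compound 4. The shares of all genes called in these other fits are not given, so these counts are no result about the lists.

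In the plasminogen list 16 of 21 genes were tested, of which 2 rose with compound 4, 1 rose and 1 fell with compound 5 and 1 rose with compound 6. SERPINE2 was at 3.88 and 2.71 CPM in DMSO, 12.3 and 21.6 CPM with compound 4, 11.5 and 8.03 CPM with compound 5, and 10.6 and 11.3 CPM with compound 6, so that all treated libraries were above DMSO. This gene, which encodes an inhibitor of thrombin and urokinase, rose by 2.40 with compound 4 (SE 0.33, adjusted p = 0.005, edgeR) and by 1.65 with compound 5 (adjusted p = 0.021), and its value with compound 6 was 1.75 (adjusted p = 0.054). This last value passed in the Wald test of DESeq2 (adjusted p = 0.00028) and not with the block. SERPINF2, the plasmin inhibitor made by hepatocytes, fell by 0.84 with compound 5 (adjusted p = 0.036) and had values of -0.57 and -0.48 with compounds 4 and 6. It was called with compound 4 as well when the block was used (adjusted p = 0.038). PLAT, the tissue activator, had too few counts for the test at 0.466 to 1.35 CPM, and SERPINB2 was at 0.

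Of 20 other Eph receptors and ephrins 8 were tested, none rose, and 1 fell with compound 4. This was EPHA1, an Eph receptor like EPHA2, at 20.9 and 18.7 CPM in DMSO and 10.6 and 8.89 CPM with compound 4 (log2-fold change -0.998, SE 0.19, adjusted p = 0.016, edgeR). Its values were 0.19 with compound 5 and -0.37 with compound 6, and compound 4 was below compound 5 (-1.19, SE 0.19, adjusted p = 0.041). EFNA1, a ligand of EPHA2, had values of -0.31, -0.15 and -0.47, none past the threshold in edgeR. The last passed narrowly in the Wald test of DESeq2 (adjusted p = 0.049) and not with the block. In the EMP and PMP22 family 4 of 6 genes were tested, and 2 rose with compound 4: EMP3 (1.76, SE 0.35, adjusted p = 0.017) and PERP, a p53 target in cell junctions (0.83, adjusted p = 0.014). With the block PERP was called with compound 5 as well (adjusted p = 0.031). EMP2, at 59.7 and 48.6 CPM in DMSO the more abundant relative of EMP1, had values of -0.50, -0.59 and -0.44, the first and second of which passed with the block (adjusted p = 0.036 and 0.028). PMP22 had values of -1.08, -0.81 and -0.79, none called.

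**Figure D2:**
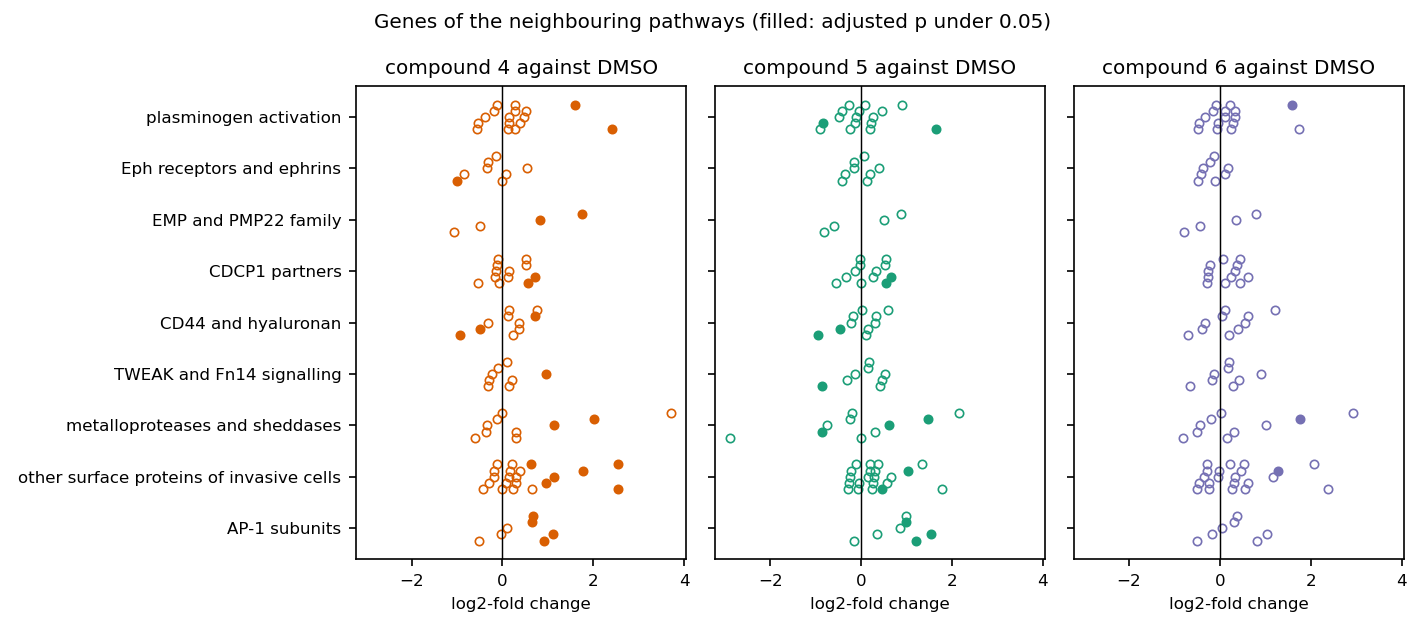
Log2-fold change against DMSO (x axis) of each tested gene in 9 lists by function (y axis), in 1 panel per compound, with filled points for an adjusted p under 0.05 and open points for the others. Filled points lie mostly to the right with compound 4, for example SERPINE2 at 2.40, AXL at 2.55 and L1CAM at 2.54, and 3 genes outside the AP-1 list are filled with compound 6.

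Among 12 tested partners of CDCP1, 2 rose with compound 4 and 2 with compound 5, and none was called with compound 6. They were ADAM9, a metalloprotease of the cell surface (0.73, adjusted p = 0.018 with compound 4, and 0.65, adjusted p = 0.029 with compound 5, edgeR), and CTTN, the actin regulator cortactin (0.56 in both, adjusted p = 0.012 and 0.014). With compound 6 both passed in the Wald test of DESeq2 (adjusted p = 0.0047 and 0.016) and not with the block. SRC, the kinase that phosphorylates CDCP1, had values of 0.51, 0.52 and 0.44, and the first and second passed with the block (adjusted p = 0.048 in both). In the list of CD44 and hyaluronan genes 10 of 17 were tested. Here CEMIP2, a hyaluronan-degrading protein, rose with compound 4 (0.73, adjusted p = 0.027), while with compounds 4 and 5 HMMR, a hyaluronan receptor that also acts in mitosis (-0.93 and -0.95, adjusted p = 0.035 and 0.036), and the hyaluronidase HYAL1 (-0.50 and -0.47, adjusted p = 0.03 and 0.04) fell. CEMIP2 passed with compound 5 when the block was used (adjusted p = 0.031). CEMIP2 and HMMR passed with compound 6 in the Wald test of DESeq2 (adjusted p = 0.01 and 0.041), and not with the block.

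Downstream of TNFRSF12A, 8 of 11 genes were tested. RELB, a subunit of NF-kB, rose with compound 4 (0.97, SE 0.26, adjusted p = 0.045, edgeR), and BIRC3, an inhibitor of apoptosis, fell with compound 5 (-0.87, adjusted p = 0.038). Neither call held in the Wald test of DESeq2 (adjusted p = 0.084 and 0.062). TNFSF12, which encodes the ligand TWEAK, was at 0.772 to 2.62 CPM and had values of -0.32, -0.32 and -0.65, none called. Of 10 tested metalloproteases, sheddases and their inhibitors, 2 rose with compound 4, 2 rose and 1 fell with compound 5, and 1 rose with compound 6. The changes lay largely with the tissue inhibitors: TIMP2 rose by 2.02, 1.48 and 1.77 with compounds 4, 5 and 6 (adjusted p = 0.0063, 0.022 and 0.048, the last being 0.058 with the block), TIMP1 rose by 1.13 with compound 4 (adjusted p = 0.01), and TIMP3 fell by 0.87 with compound 5 (adjusted p = 0.024), and with the block also with compound 4 (-0.61, adjusted p = 0.048). The other gene that rose with compound 5, named after its value was seen, was the sheddase ADAM17 (0.62, adjusted p = 0.047). TIMP1 and TIMP3 passed with compound 6 in the Wald test of DESeq2 (adjusted p = 0.00026 and 0.0007), and not with the block.

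Of 21 tested other surface proteins linked to invasion, 6 rose with compound 4, 2 with compound 5 and 1 with compound 6. The receptor tyrosine kinase AXL was at 8.89 and 5.68 CPM in DMSO, 27.2 and 55.8 CPM with compound 4, 23.2 and 11.7 CPM with compound 5, and 25 and 50.2 CPM with compound 6, which is the same order of replicates as in EMP1. AXL rose by 2.55 with compound 4 (SE 0.49, adjusted p = 0.015, edgeR), and its values of 1.34 and 2.39 with compounds 5 and 6 did not pass (adjusted p = 0.12 and 0.058). The Wald test of DESeq2 called AXL with compound 6 (adjusted p = 0.011) and not with compound 5 (0.17), and the block called neither. The adhesion molecule L1CAM rose by 2.54 with compound 4 (adjusted p = 0.015), with 1.78 and 2.06 for compounds 5 and 6. ENG, the co-receptor endoglin, rose by 1.77 with compound 4 (SE 0.16, adjusted p = 0.0013) and by 1.28 with compound 6 (adjusted p = 0.023), and compound 4 exceeded compound 5 by 1.21 (SE 0.15, adjusted p = 0.016). The genes called with compound 5, named after their values were seen, were the adhesion molecule ICAM1 (1.03, adjusted p = 0.0047) and the nectin-like protein PVR (0.45, adjusted p = 0.039).

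All 7 AP-1 genes were tested, and 4 rose with compound 4, 3 with compound 5 and none with compound 6. Of all genes tested 5.6%, 5.35% and 0.493%, respectively, rose. FOSL1 was at 8.07 and 9 CPM in DMSO, 14.3 and 21.6 CPM with compound 4, 25.9 and 20.9 CPM with compound 5, and 13.9 and 20.9 CPM with compound 6, so that all treated libraries were above DMSO. It rose by 1.11 with compound 4 (SE 0.25, adjusted p = 0.028, edgeR) and by 1.53 with compound 5 (adjusted p = 0.011), with 1.04 for compound 6 (adjusted p = 0.087). JUNB rose by 0.92 and 1.20 with compounds 4 and 5 (adjusted p = 0.01 and 0.0047) and JUN by 0.68 and 0.98 (adjusted p = 0.048 and 0.016), the former being 0.054 with the block. FOSL1 and JUNB passed with compound 6 in the Wald test of DESeq2 (adjusted p = 0.012 in both), and JUN did not (0.31). None of the 3 passed with compound 6 in the block fit. The fourth gene called with compound 4 was FOSL2 (0.66, adjusted p = 0.023), named here after its value was seen. FOS, FOSB and JUND, also named after their values were seen, were not called with any compound. FOS had values of -0.51, 0.85 and 0.05 with compounds 4, 5 and 6. FOSB had -0.03, 0.998 and -0.50, and JUND had 0.10, -0.15 and -0.16. Each compound was set against the same 2 DMSO libraries in all of these comparisons.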

How the data were processed

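RNA from 8 samples in 4 groups of 2 was analysed. The authors estimated transcript abundance with Salmon 1.5.0 after FastQC 0.12.0, per the submitters' processing notes, which also name DESeq2 1.38.3, and deposited whole-number counts per gene without normalization for 60230 genes. Libraries were prepared with a directional kit, and whether the counting used the strand is not given in the sources used here, so counts of overlapping genes are uncertain. Totals were 9791659 to 17814595 per library. Symbols matched 60089 identifiers, and positions and transcript lengths on GRCh38 were taken from GENCODE 29 for 57972, an older release than the authors used. Promoters came from RefSeq, and motifs were searched on both strands in the 250 bases before each start.

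Counts were tested in R 4.3.3 with edgeR 4.0.16 (TMM, filterByExpr with a minimum count of 10, quasi-likelihood test, all 8 libraries in 1 fit, no block), and p-values were adjusted by Benjamini-Hochberg over 13400 genes, with a threshold of 0.05. The script was tested on simulated data. CPM are counts scaled by the deposited total. The members and lists were chosen with earlier results of these data known. Named in the text are the 7 members, the 3 called genes of each list with the largest change and the largest in the other direction, genes with a direct tie to a member, and the 3 profiles nearest to CDCP1, EMP1, EPHA2 and PLAUR with at least 1 CPM on average. A gene that this rule takes is not reported here.

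The day in the labels is the source of the pairing. The difference of replicate 2 minus 1 correlated between groups with r of -0.142 to 0.1701 over the 6 pairs of groups, across genes, which are not independent. Alternatives were DESeq2 1.42.0, the replicate block, DESeq2 size factors, fitting the 4 compared samples alone, other filters and leaving out libraries.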

Additional observations from a re-analysis of the deposited data

How the results depend on the processing

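With 2 replicates per group, single libraries decided several calls. The share of all genes called is not given for any alternative fit. The counts of called genes below therefore describe the fits and are no result about the lists or the members. Leaving out 1 library at a time, the number of genes chosen by function past the threshold ran from 0 to 1 for each of compounds 4, 5 and 6. The number of list genes that rose ran from 1 to 16, 0 to 14 and 0 to 11 for compounds 4, 5 and 6, and the number that fell from 0 to 7, 0 to 5 and 0 to 1. Leaving out a replicate number in all groups left no spread to test, and only log2-fold changes were computed.

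With the Wald test of DESeq2, 6 list genes fell with compound 4, 12 rose with compound 5, 11 rose and 5 fell with compound 6, and 1 gene chosen by function passed with compound 6. In a fit of only the 4 samples compared, 3 list genes fell with compound 5, 14 rose and 6 fell with compound 6, and 1 gene chosen by function passed. With DESeq2 size factors 1 list gene rose with compound 6. With no filter on low counts, 9 list genes fell with compound 4, 17 rose with compound 5, 19 rose and 8 fell with compound 6, and 2 genes chosen by function passed with compound 5, 3 with compound 6 and 1 between compounds 6 and 5. In that fit of edgeR the adjusted p of PLAU was 0.06, 0.039 and 0.0017 for compounds 4, 5 and 6. These values set few counts against 0 in DMSO and are no support for a rise. The only other fits that held PLAU left out 1 library. It passed their filter through compound 6 replicate 2, its highest library with 12 counts, and was absent without that library. With at least 10 counts in every sample, 7 list genes rose with compound 6, and 1 gene chosen by function passed there and 1 between compounds 6 and 5. The causes were not tested.

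With the replicate block 7 list genes fell with compound 4, and the calls of the genes chosen by function did not change (TNFRSF12A adjusted p = 0.0091, 0.019 and 0.065 for compounds 4, 5 and 6). A crossed pairing of compounds 4 and 5, added after the data were seen, left 0 genes chosen by function past the threshold. TNFRSF12A between compounds 6 and 5 reversed to 0.11 without compound 5 replicate 1 and to 0.12 without compound 6 replicate 1, and was 0.38 without replicate 1 and -0.68 without replicate 2 of all groups. The log2-fold changes of CDCP1, EMP1 and EPHA2 against DMSO were above 0 in all 15 or 16 alternatives. These genes were chosen for their rise in the same libraries, so the shared sign adds no support. Levels under 1 CPM, as of EMP1 in DMSO and of PLAU, are limited by counting error at this depth.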
